A study of Triticum aestivum with 6 samples.

Results

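Among the transcripts of developing wheat grain, 268 of 221925 sequences were abundant in young aleurone at both 6 and 9 days post anthesis (DPA), scarce in starchy endosperm, and almost gone from aleurone by 14 DPA. They were chosen on RPKM, the read count of a sequence per kilobase of its length and per 1000000 reads of its library. A member had at least 50 RPKM in aleurone at 6 and at 9 DPA, with the 9 DPA level within 4-fold of the 6 DPA level. Its level at 14 DPA in aleurone was at most 1/50 of the 6 DPA aleurone level, and its levels at 6 and at 14 DPA in starchy endosperm were at most 1/16 of it. These 5 libraries chose the members, so their differences are described without a test. The 9 DPA starchy endosperm library had no part in the choice.

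The grain was that of Banks, a cultivar of bread wheat (Triticum aestivum), and the labels give no treatment. Aleurone and starchy endosperm were separated by microdissection at 6, 9 and 14 DPA, which gave 6 libraries, 1 for each tissue and stage. The tissue of no fewer than 5 seeds, taken from 3 spikes on 3 plants, went into each as a pool, so no value has a replicate error. Library totals ran from 27150859 to 37911327 reads at 6 and 14 DPA while the 9 DPA libraries were shallower, with 4549034 (aleurone) and 4104682 (starchy endosperm). One read of a member of median length was therefore worth between 0.0361 and 0.334 RPKM, depending on the library. In bulk tissue, fewer cells of a type and less RNA per cell cannot be told apart.

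The aleurone is the outermost layer of the cereal endosperm. It arises from the same fertilised cell as the starchy endosperm, which it surrounds, and takes on its own identity early in grain development, when the endosperm has become cellular. Starchy endosperm cells fill with starch and storage protein and die, whereas aleurone cells stay alive in the mature grain and at germination secrete enzymes that break down the reserves. None of the identifiers (0 of 268) matched the reference gene table, so the members are given by their identifiers, without gene names, functions or positions. The same gene may stand behind more than 1 sequence, so a count of members is not a count of genes.

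The members carried a sizeable share of the reads of young aleurone and almost none of those of any other library. Of the aleurone library they held 7.91% at 6 DPA, 8.42% at 9 DPA and 0.0401% at 14 DPA. Of the starchy endosperm library they held 0.0367% at 6 DPA, 0.0215% at 9 DPA and 0.00565% at 14 DPA. The exact 95% binomial intervals, which cover counting error only, were 7.90% to 7.92% for 6 DPA aleurone and 0.0395% to 0.0408% for 14 DPA aleurone. The summed RPM (reads per 1000000 of the library) of the members was 197-fold lower in aleurone at 14 DPA than at 6 DPA, and 210-fold lower at 14 DPA than at 9 DPA. As a scale, 308 sequences met every other condition but kept more than 1/50 of their 6 DPA level. The 308 held 4.32%, 5.39% and 1.38% of the aleurone library at 6, 9 and 14 DPA, a total 3.14-fold lower at 14 than at 6 DPA. The median member had 185 RPKM at 6 DPA, 189 RPKM at 9 DPA and 0.802 RPKM at 14 DPA in aleurone, and 0.795, 0.189 and 0.030 RPKM at the same stages in starchy endosperm.

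**Figure D1:**
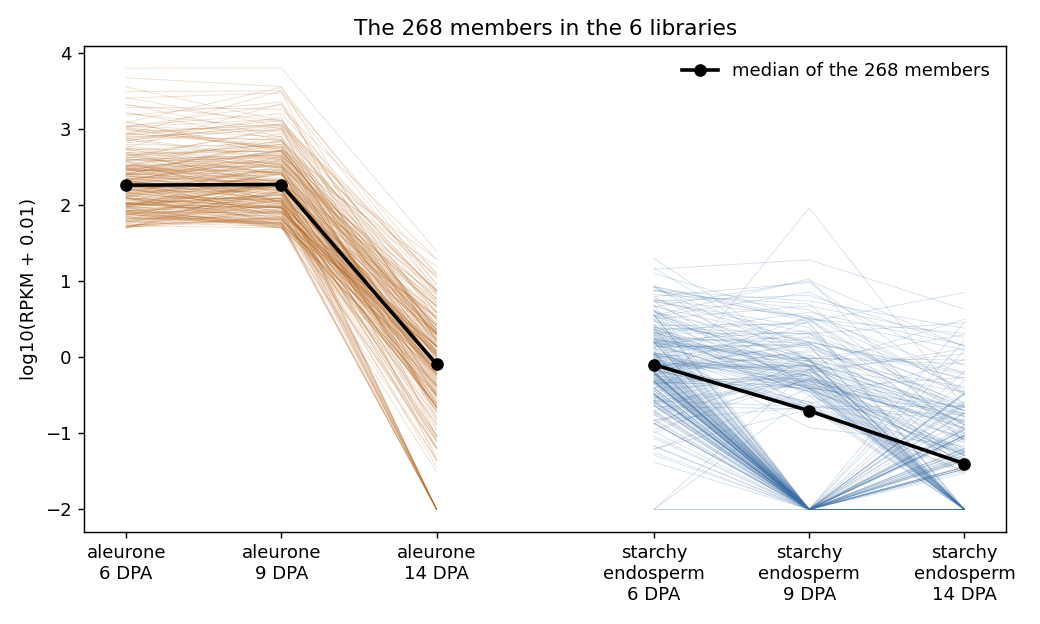
RPKM of each of the 268 members, as log10(RPKM + 0.01), in aleurone (brown, left) and starchy endosperm (blue, right) at 6, 9 and 14 DPA; each thin line is a member and the black line joins the medians. The aleurone medians are 185 and 189 RPKM at 6 and 9 DPA and 0.802 RPKM at 14 DPA, and sequences with no reads lie at the bottom of the axis.

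Many of the most abundant sequences of young aleurone belonged to this set. Of the 10 sequences with the highest RPKM in 6 DPA aleurone 8 were members, as were 31 of the highest 50 and 45 of the highest 100. Of the highest 500, 117 were members, and of all 4655 sequences with at least 50 RPKM there, 268 were. The choice itself asked for at least 50 RPKM at 6 and 9 DPA, so these ranks are a description only. At 9 DPA 8 of the highest 10 and 43 of the highest 100 were members. In 14 DPA aleurone the best placed member had rank 8896. Members at or above 1000 RPKM at 6 DPA numbered 23 and held 41.7% of the members' reads in that library. A further 104 lay between 200 and 1000 RPKM with 43.3% of those reads, 71 lay between 100 and 200 RPKM, and 70 between 50 and 100 RPKM held 5.02%. No single member carried the total, since 31 members were needed for 50% of the reads.

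The member with the highest level was TC427907 (759 bases). It had 6413 RPKM at 6 DPA, 6443 RPKM at 9 DPA and 25.2 RPKM at 14 DPA in aleurone, and 7.58, 3.21 and 0.176 RPKM at the same stages in starchy endosperm. Its 14 DPA aleurone level of 724 reads was among the highest of the members in absolute terms, yet 255-fold below 6 DPA (exact 95% interval 237 to 275, counting error only). Only 302 of its 132162 reads at 6 DPA and 9 of its 724 reads at 14 DPA were counted as unique by the authors. On unique reads alone it was under 50 RPKM at 6 DPA and did not meet the conditions. The 255-fold ratio and its interval rest on all reads. Its level therefore rests almost wholly on reads that were not unique to it, and the sources used here do not say how such reads were divided.

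CK164262 (807 bases) stood second, with 4808, 3663 and 1.57 RPKM at 6, 9 and 14 DPA in aleurone. In starchy endosperm it had 20.1 and 0.906 RPKM at 6 and 9 DPA and no reads at 14 DPA. The 20.1 RPKM was the highest 6 DPA starchy endosperm level of any member, and it was 0.418% of the aleurone level. TC406770 (561 bases) followed with 3618, 1295 and 5.78 RPKM in aleurone, and was already lower at 9 DPA. Starchy endosperm held 15.0, 0.869 and 0.190 RPKM of it. Both had more reads of their own than TC427907, as 30.9% of the CK164262 reads and 83.4% of the TC406770 reads in 6 DPA aleurone were unique.

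TC407261 (886 bases) and TC404832 (650 bases) had the smallest remainders at 14 DPA among the 6 most abundant members. TC407261 had 3160, 3223 and 0.149 RPKM in aleurone at 6, 9 and 14 DPA, with 5 reads left at 14 DPA against 76023 at 6 DPA. Of the 76023 reads 5058 were unique, and of the 5 reads 0 were, so its level rests mostly on reads that were not unique to it. In starchy endosperm TC407261 had 4.17 RPKM at 6 DPA and no reads later. TC404832 had 2633, 1095 and 0.081 RPKM in aleurone and 6.19, 0.750 and 0 RPKM in starchy endosperm. At 9 DPA it stood at 0.416 times its 6 DPA level. The 2 reads left at 14 DPA place it 8982 to 267933 times below 6 DPA (exact 95% interval). The last of the 6, TC396665 (685 bases), was slightly higher at 9 than at 6 DPA in aleurone, with 2590, 3029 and 7.55 RPKM at 6, 9 and 14 DPA. Its starchy endosperm levels were 8.40, 1.42 and 0 RPKM.

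**Figure D2:**
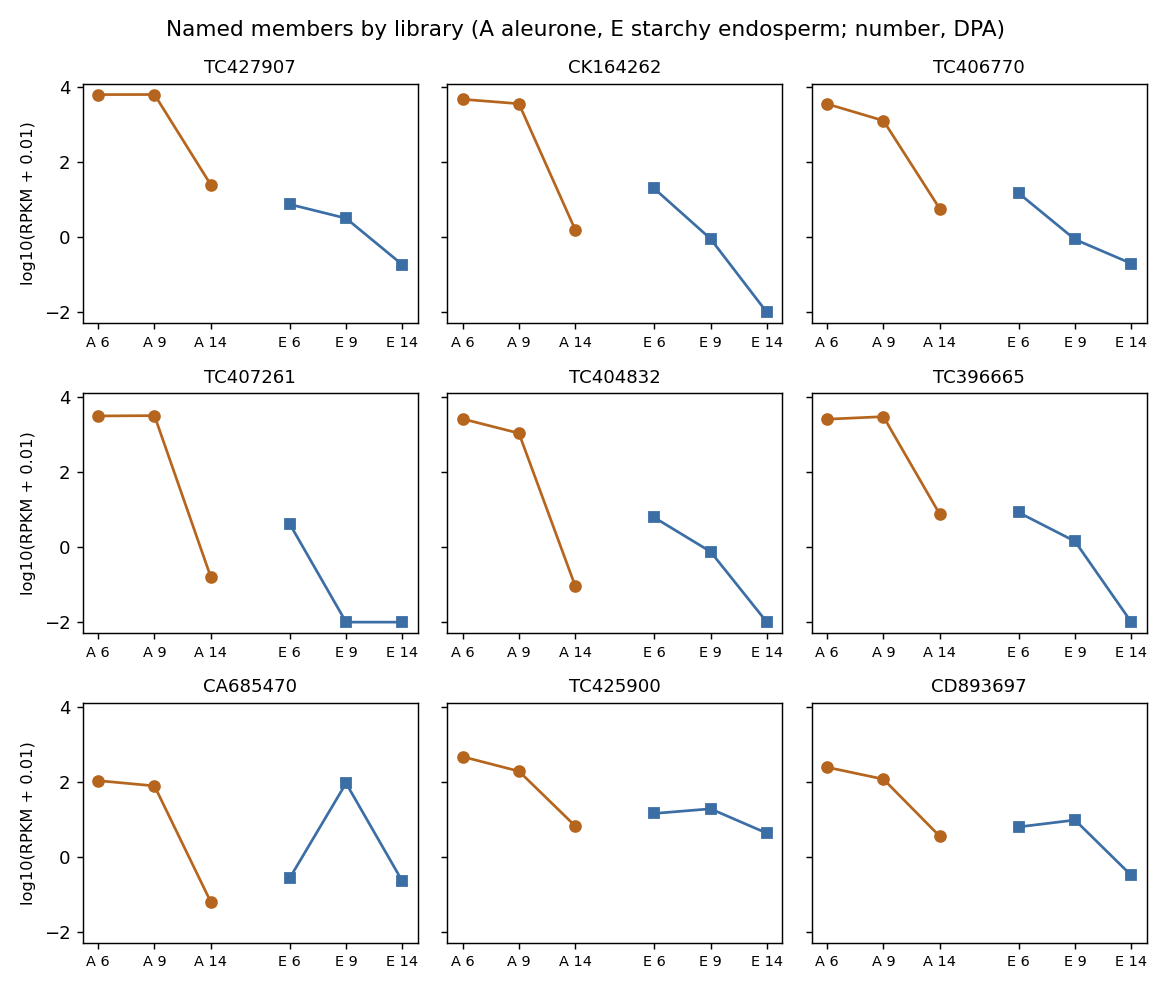
RPKM of the 6 members highest in 6 DPA aleurone and of the 3 with the highest ratio of starchy endosperm to aleurone at 9 DPA, as log10(RPKM + 0.01); brown circles are aleurone and blue squares starchy endosperm, each at 6, 9 and 14 DPA. The top 6 have 2590 to 6413 RPKM in 6 DPA aleurone, and CA685470 reaches 93.1 RPKM in 9 DPA starchy endosperm.

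The loss by 14 DPA varied widely below the limit that the choice set. The median member was left with 0.494% of its 6 DPA aleurone level, with a lower quartile of 0.152%. There were 67 members at 1/100 to 1/50 of the 6 DPA level, 141 between 1/1000 and 1/100, and 60 under 1/1000. Among all 4655 sequences with at least 50 RPKM in 6 DPA aleurone, 8.59% were at or below 1/50 at 14 DPA, with a median 14 DPA level of 48.1% of 6 DPA. No gap separates the members from the sequences just above the limit: 72 of the 308 sequences that met the other conditions lay between 1/50 and 1/25. Of these 308, 73 kept at least 1/4 of the 6 DPA level and 14 were at or above it.

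**Figure D3:**
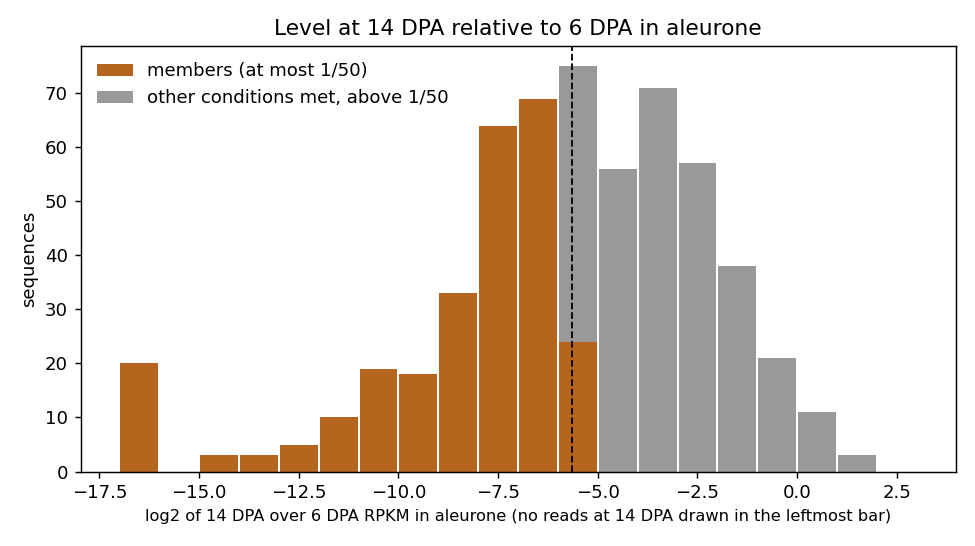
Number of sequences (vertical axis) by the log2 ratio of 14 to 6 DPA RPKM in aleurone (horizontal axis), for the 268 members in brown and the 308 sequences that met every other condition in grey; the dashed line marks 1/50, and the 20 members with no reads at 14 DPA are drawn in the leftmost bar. The counts run through the limit without a gap, with 67 members between 1/100 and 1/50 and 72 other sequences between 1/50 and 1/25.

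In 14 DPA aleurone 20 members had no reads and 25 had 1 to 3 reads. The number with none was 37 on unique reads and 66 at equal depth. No reads were found there for 32 (0.687%) of all 4655 sequences with at least 50 RPKM at 6 DPA, of which 400 met the loss limit. A count of 0 always meets that limit, so the choice itself raises the members' share above 0.687%. The 20 had 69.0 to 310 RPKM at 6 DPA, and with 14 DPA set at 3 reads they were at least 377-fold to at least 3305-fold lower than at 6 DPA. The highest of these bounds was that of TC383196 (843 bases), named after its values were seen, with 310, 209 and 0 RPKM at 6, 9 and 14 DPA in aleurone. Of the 20, 15 had no reads in 14 DPA starchy endosperm either. None of the 23 members above 1000 RPKM (0) was without reads at 14 DPA, though their median remainder was 0.160% of 6 DPA. The median remainder was 0.540% for members of 200 to 1000 RPKM, 0.428% for those of 100 to 200 RPKM and 0.582% for those of 50 to 100 RPKM. The most reads at 14 DPA were those of TC427907 and, after it, TC440294 (692 bases), which had 1014, 550 and 19.8 RPKM in aleurone at 6, 9 and 14 DPA. TC440294 kept 520 reads at 14 DPA, of which 499 were unique, and stood at 1.95% of 6 DPA.

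Between 6 and 9 DPA the members moved in both directions in aleurone. At 9 DPA 138 were higher and 130 lower than at 6 DPA, with a median log2 ratio of 9 over 6 DPA of 0.022. Among all 3031 sequences with at least 50 RPKM at both stages and less than 4-fold apart, 53.8% were higher at 9 DPA. Of the 308 sequences that met the other conditions but not the loss, 200 were higher at 9 DPA. At least 2-fold changes were seen in 41 members that were higher (15.3%) and 29 that were lower at 9 DPA (10.8%). The shares among the 3031 sequences were 8.74% and 7.49%. Across the 268 members the levels at 9 and 6 DPA correlated at a Spearman rho of 0.781 (Pearson r = 0.825 on log2(RPKM + 1)). This is a description across sequences of single libraries, in which the choice of members bounds the ratio.

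The 29 members that were at least 2-fold lower at 9 DPA included abundant ones. Their median was 110 RPKM at 9 DPA, against 333 RPKM at 6 DPA, and 6 of them were above 1000 RPKM at 6 DPA. Their share of the aleurone library was 1.40% at 6 DPA, 0.547% at 9 DPA and 0.00469% at 14 DPA. The 41 that were at least 2-fold higher at 9 DPA had a median of 326 RPKM then, against 129 RPKM at 6 DPA. Their share was 0.678% at 6 DPA, 1.83% at 9 DPA and 0.00498% at 14 DPA, so the members with unlike early courses held similar shares at 14 DPA. The 198 others held 5.83%, 6.04% and 0.0305%.

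How much was left at 14 DPA relative to 6 DPA differed with the early course, but not in the same way relative to 9 DPA. The median remainder at 14 DPA was 0.160% of 6 DPA for those at least 2-fold lower at 9 DPA, 0.442% for those within 2-fold and 0.734% for those at least 2-fold higher. As both ratios share the 6 DPA level, the same was computed against 9 DPA. The medians were then 0.447% of 9 DPA, 0.466% and 0.268% in the same order, so against 9 DPA the order was not kept.

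**Figure D4:**
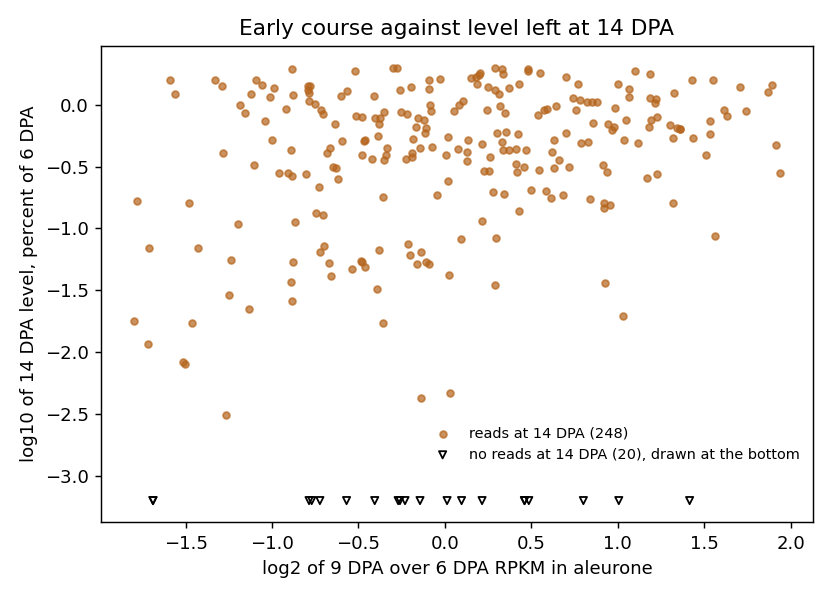
Level left in 14 DPA aleurone, as log10 of the percent of 6 DPA (vertical axis), against the log2 ratio of 9 to 6 DPA in aleurone (horizontal axis), for each member; brown points are the 248 members with reads at 14 DPA and open triangles the 20 with none. The median remainder is 0.160% among members at least 2-fold lower at 9 DPA and 0.734% among those at least 2-fold higher, with wide overlap.

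The strongest early changes within the 4-fold window ran both ways. TC451473 (946 bases) had 572, 2195 and 1.62 RPKM in aleurone at 6, 9 and 14 DPA, which was 3.84 times as much at 9 as at 6 DPA. TC425178 (619 bases) had 108, 407 and 0.511 RPKM, or 3.77 times as much at 9 as at 6 DPA, and 100% of its 6 DPA aleurone reads were unique. Both were far below their earlier levels at 14 DPA. In the other direction TC381773 (776 bases) had 381, 109 and 0.068 RPKM, and at 9 DPA stood at 0.287 times its 6 DPA level. TC445916 (1139 bases) had 373, 109 and 0.625 RPKM, at 0.291 times. Of the aleurone reads of TC381773, 3321 of 8020 were unique at 6 DPA and 116 of 386 at 9 DPA. For TC445916 8480 of 11528 were unique at 6 DPA and 169 of 563 at 9 DPA, so the unique share of both was lower at 9 DPA. On unique reads alone the ratio of 9 to 6 DPA of both lay below the 4-fold window. In starchy endosperm these 4 sequences had at most 3.66 RPKM, the level of TC451473 at 6 DPA.

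The 9 DPA starchy endosperm library, which the choice did not use, held little of nearly all members. In it 265 of the 268 members (98.9%) were at or below 1/16 of their 9 DPA aleurone level, and 246 were at or below 1/100. Of all 4392 sequences with at least 50 RPKM in 9 DPA aleurone, 26.6% met the limit of 1/16 and 15.6% that of 1/100. Of the 308 sequences that met the other conditions but not the loss, 286 (92.9%) were at or below 1/16 and 186 (60.4%) at or below 1/100. The members had been chosen for low starchy endosperm levels at 6 and 14 DPA, as had these 308. No reads were found in 9 DPA starchy endosperm for 132 members (49.3%), against 77 of the 308 and 7.67% of the 4392. At this depth a count of 0 allows up to 0.731 RPM. A further 90 members had 1 to 3 reads and 46 had more. With 1 library per group none of these differences was tested.

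**Figure D5:**
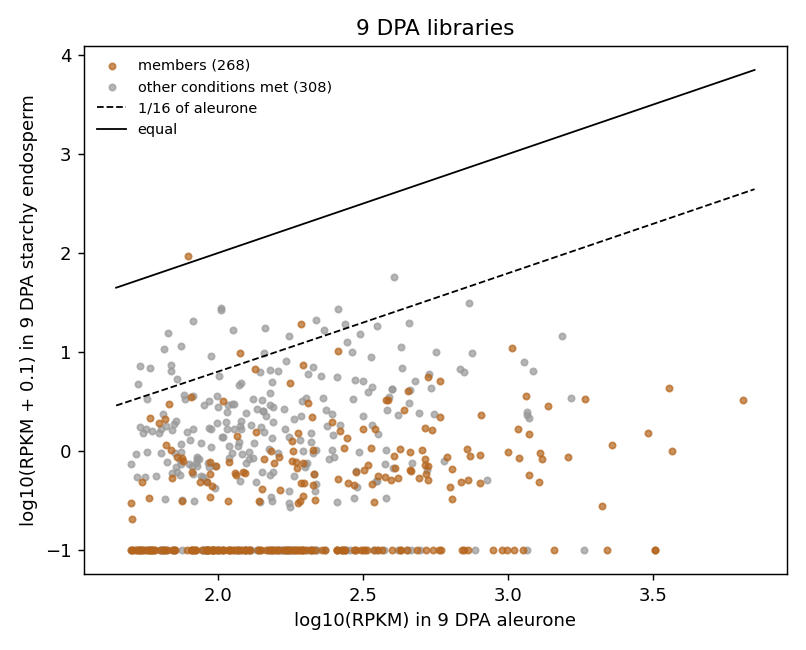
Level in 9 DPA starchy endosperm, as log10(RPKM + 0.1), against that in 9 DPA aleurone, as log10(RPKM), for the 268 members in brown and the 308 sequences that met every condition except the loss in grey; the solid line marks equal levels and the dashed line 1/16. Of the members 265 lie on or below the dashed line, and CA685470 lies above the line of equal levels.

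There were 3 members above 1/16, and they were not alike. CA685470 (497 bases) had 109, 78.7 and 0.053 RPKM at 6, 9 and 14 DPA in aleurone. In starchy endosperm it had 0.263, 93.1 and 0.215 RPKM. It was thus the 1 member with a higher level in starchy endosperm than in aleurone at 9 DPA, while at 6 DPA its starchy endosperm level was 0.242% of that in aleurone. The 9 DPA values rest on 178 reads in aleurone and 190 in starchy endosperm, of which 37 and 45 were unique. This sequence alone held 21.6% of the members' reads in 9 DPA starchy endosperm. Without it the members' share of that library was 0.0168%.

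The other exceptions were low in starchy endosperm at every stage, but less so than most members. TC425900 (873 bases) had 474, 194 and 6.68 RPKM in aleurone and 14.5, 19.3 and 4.31 RPKM in starchy endosperm at 6, 9 and 14 DPA. At 9 DPA its starchy endosperm level was 9.92% of that in aleurone. CD893697 (681 bases) had 248, 119 and 3.56 RPKM in aleurone and 6.34, 9.66 and 0.313 RPKM in starchy endosperm, at 8.11% of aleurone at 9 DPA. CD893697 was named after its values were seen. For the 265 others the highest ratio of starchy endosperm to aleurone at 9 DPA was 4.91%.

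At 6 DPA the members' starchy endosperm reads were few but rarely absent. Only 4 members had no reads there, and the median starchy endosperm level was 0.391% of the aleurone level, with quartiles of 0.224% and 0.610%. The median was 1.16% for the 308 sequences that met the other conditions and 55.6% for all sequences with at least 50 RPKM in 6 DPA aleurone, of which 17.4% met the limit of 1/16 at 6 DPA and 27.5% that at 14 DPA. Summed over the members, starchy endosperm held an RPM sum that was 0.464% of that in aleurone at 6 DPA and 0.255% at 9 DPA. Across members the 6 DPA starchy endosperm level correlated with the 6 DPA aleurone level (Spearman rho 0.663, Pearson r = 0.704 on log2(RPKM + 1), n = 268). This describes 1 pair of libraries and sequences chosen by a cap on their ratio. Carry-over of aleurone material during dissection was not tested. The residue in 14 DPA aleurone was of the size of that in 6 DPA starchy endosperm, and 134 of the 268 members were lower in 14 DPA aleurone than in 6 DPA starchy endosperm.

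In starchy endosperm most members were lower at the later stage, as was a smaller majority of sequences with the same limits. At 14 DPA 258 members (96.3%) were lower than at 6 DPA and 6 were higher. Of the 760 sequences with at least 50 RPKM in 6 DPA aleurone and the same starchy endosperm limits, 87.1% were lower at 14 DPA. The 760 include the members. Of the 308 sequences that met the other conditions but not the loss, 82.5% were lower. Among those with at least 50 reads in 6 DPA starchy endosperm, 45 of 59 members were at least 4-fold lower, against 64 of 125 from the 308. The choice capped both levels against 6 DPA aleurone and did not order them. These counts were made without TMM scaling. The TMM factor was 1.002 for 6 DPA and 0.652 for 14 DPA starchy endosperm, so TMM scaling would make the falls smaller.

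What remained at 14 DPA was mostly higher in aleurone than in starchy endosperm. RPM was higher in aleurone for 229 members, higher in starchy endosperm for 23 and 0 in both for 15. The remaining member, TC410820, also named after its values were seen, had 1 read in each. Among all 383 sequences with the same limits at 14 DPA, 82.2% were higher in aleurone, against 85.4% of the members. The 383 include the members, so the closeness of these shares cannot show whether the members resemble the other sequences. Summed over the members, starchy endosperm had an RPM sum that was 14.1% of that in aleurone at 14 DPA, or 22.7% with TMM scaling, a setting chosen after seeing the data.

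Of the 23 members with more in starchy endosperm at 14 DPA, 5 had at least 50 reads there, and these are named after their values were seen. TC394043 (1490 bases) had 3.88 RPKM in aleurone and 7.14 RPKM in starchy endosperm at 14 DPA, with 302 and 8.58 RPKM at 6 DPA. It was 77.9-fold lower at 14 than at 6 DPA in aleurone, while in starchy endosperm it had 8.58, 2.94 and 7.14 RPKM at 6, 9 and 14 DPA. TC427906 (1065 bases) had no reads in 14 DPA aleurone and 2.85 RPKM, or 114 reads, in 14 DPA starchy endosperm, with 99.3 and 2.09 RPKM at 6 DPA. TC431430 (480 bases) had 1.43 RPKM in aleurone and 2.94 RPKM in starchy endosperm at 14 DPA, and all of its 26 and 53 reads were unique. TC403093 (1137 bases) had 1.11 RPKM in aleurone and 1.22 RPKM in starchy endosperm, from 48 and 52 reads. TC381593 (1420 bases) had 0.706 RPKM in aleurone and 1.11 RPKM in starchy endosperm, from 38 and 59 reads. TC403093 rests on shared reads, with 10 of its 2959 reads in 6 DPA aleurone unique.

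By length the members were near the abundant aleurone sequences as a whole, which include them, and a smaller share had identifiers beginning with TC. Their median length was 730 bases, with a range of 149 to 2244, against 778 bases for all sequences with at least 50 RPKM in 6 DPA aleurone. Identifiers beginning with TC made up 76.1% of the members (204), 78.9% of the 308 and 82.9% of the abundant sequences, and the other 64 members had identifiers of other kinds. The median member had 68.2% of its 6 DPA aleurone reads counted as unique, against 57.1% for the 308 and 43.5% for the abundant sequences. There were 70 members with at least 90% unique reads and 22 with under 10%. The unique share was lower at higher levels, with a median of 82.9% for members of 50 to 100 RPKM, 68.1% for 100 to 200 RPKM, 57.2% for 200 to 1000 RPKM and 43.4% above 1000 RPKM. On unique reads alone, 207 of the 268 met every condition. Of the 61 that did not, 47 were under 50 RPKM at 6 or 9 DPA, 9 kept these levels but not a 50-fold loss, and 5 left the 4-fold window. Of the 23 members above 1000 RPKM 20 met the conditions on unique reads, and of the 6 highest 5 did, all but TC427907.

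Sequences next to each limit show how the set ends. At the 6 DPA minimum, TC400035 had 50.1 RPKM as a member and TC399652 had 47.9 RPKM outside it. At the 9 DPA minimum, TC369385 had 50.2 RPKM as a member and TC406378 had 49.9 RPKM outside. The ratio of 9 to 6 DPA was 0.287 for TC381773 inside and 0.245 for TC370903 outside at the lower edge. At the upper edge it was 3.84 for TC451473 inside and 4.02 for CA710191 outside. TC370903 had 2080, 509 and 0.388 RPKM at 6, 9 and 14 DPA in aleurone, a course like that of the members but just below the window at 9 DPA. The 14 DPA aleurone level was 1.996% of 6 DPA for TC406100 inside and 2.06% for TC453266 outside. The 6 DPA starchy endosperm level was 4.43% of aleurone for CJ929811 inside and 7.59% for CA608399 outside. The 14 DPA starchy endosperm level was 3.83% of 6 DPA aleurone for TC431430 inside and 7.03% for TC379668 outside. At the limits on aleurone levels the sequences inside and outside lay close together, and at those on starchy endosperm they lay further apart.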

How the data were processed

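Per the labels' protocols, a linear amplification of the RNA was followed by enzymatic removal of the poly(A) tail, 15 cycles of PCR and sequencing on a Genome Analyzer IIx. For the aligner and the version of the sequence set, the sources used here give nothing. The authors deposited counts of total and of unique reads per sequence and RPKM. Recomputing RPKM from total counts, lengths and library totals gave the deposited RPKM to within 5e-04. The 6 DPA files also hold a transformed score, per the file headers, which was not used.

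The conditions were applied to the deposited RPKM. The members were chosen with earlier results of these data known. With 1 library per group no p-value was computed. Ratios of reads carry exact 95% intervals (scipy 1.17.1), which cover counting error only, since PCR copies were not told apart. A count of 0 was set at 3 reads for ratios. Equal-depth values come from drawing 4104682 reads per library. TMM factors came from edgeR 4.0.16 (R 4.3.3). The selection was tested on simulated data. In these, planted members lay well inside the limits and other sequences kept the same rate in every library. The simulation cannot show how the choice behaves near the limits or with real differences between tissues and stages. Members were named by rule: the 6 highest in 6 DPA aleurone, the extremes of 9 over 6 DPA, of starchy endosperm over aleurone at 9 DPA and of 14 DPA reads, and those next to each limit. Where the report says so, a member was named after its values were seen.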

Additional observations from a re-analysis of the deposited data

Results flagged for a closer look

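For 5 of the named members the 9 DPA level differed from the 6 DPA level in opposite directions in the tissues, with both counting intervals clear of no change. The difference between the tissues was not tested, as there was 1 library per tissue and stage. Opposite directions were looked for only among members named by rule and were not counted over all 268. Of the 268, 138 were higher at 9 than at 6 DPA in aleurone. Over all 268 members the median in starchy endosperm was 0.795 RPKM at 6 DPA and 0.189 RPKM at 9 DPA. CA685470 stood at 0.725 times its 6 DPA level in 9 DPA aleurone and at 354 times in 9 DPA starchy endosperm (exact 95% interval 136 to 1312). The 354 rests on 4 starchy endosperm reads at 6 DPA, of which 0 were unique, and 190 at 9 DPA, of which 45 were unique. TC425900 stood at 0.410 times its 6 DPA level in aleurone and at 1.33 times in starchy endosperm (interval 1.01 to 1.72), but with TMM scaling the starchy endosperm ratio was 1.21 with an interval of 0.926 to 1.57. TC396665 stood at 1.17 times its 6 DPA level in aleurone and at 0.169 times in starchy endosperm. TC451473 stood at 3.84 times its 6 DPA level in aleurone, while in starchy endosperm it had 0 reads at 9 DPA, against 106 at 6 DPA. TC407261 stood at 1.02 times its 6 DPA level in aleurone (interval 1.001 to 1.04, or 0.997 to 1.04 with TMM scaling), while in starchy endosperm it had 0 reads at 9 DPA, against 113 at 6 DPA.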

How the results depend on the processing

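The number of members (268) was 168 with a minimum of 100 RPKM. Under the 13 other settings it ran from 198 (2-fold window) to 383 (minimum of 25 RPKM), with 277 on unique reads, 231 with TMM scaling and 267 at equal depth. Of the 277 on unique reads 207 were among the 268 and 70 were not. Of the 267 at equal depth 254 were among the 268 and 13 were not. The members' shares on unique reads were 7.40% and 0.0480% in 6 and 14 DPA aleurone and 0.0406%, 0.0244% and 0.00837% in 6, 9 and 14 DPA starchy endosperm. At equal depth they were 7.89% and 0.0382% in 6 and 14 DPA aleurone and 0.00592% in 14 DPA starchy endosperm. Without CA685470, a setting chosen after seeing the data, the 9 DPA starchy endosperm share was 0.0168%. The median log2 ratio of 9 over 6 DPA in aleurone was -0.016 on unique reads, 0.0032 at equal depth, 0.018 with TMM and 0.026 for members with at least 100 reads in 9 DPA aleurone, so it has no firm direction. Members with no reads in 14 DPA aleurone numbered 37 on unique reads and 66 at equal depth, where fewer reads were counted. The 14 DPA sum of the members in starchy endosperm was 22.7% of that in aleurone with TMM scaling, also chosen after seeing the data. The median unique share was 49.3% in 9 DPA aleurone. Members at or below 1/16 at 9 DPA numbered 264 to 265 of 268 under the alternatives, and 260 of the 263 with at least 100 reads in 9 DPA aleurone. Those higher in aleurone at 14 DPA numbered 182 to 225 of 268. TMM moved log2 ratios by 0.13 for 14 over 6 DPA in aleurone, by -0.20 for aleurone over starchy endosperm at 6 DPA and by -0.69 at 14 DPA. No paired test of the tissues was made. A fit of tissue with stage as a block would rest on 1 library per tissue and stage and would test values that chose the members.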
